A study of Mus musculus with 2 samples.

Results

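The potassium channel genes of the mouse heart were taken as all genes whose symbol begins with Kcn and that have at least 1 transcript annotated as protein-coding. There were 94 such genes among 55536 Ensembl genes in the tables, of which 22028 were protein-coding. Another 5 genes with a Kcn symbol have no protein-coding transcript and were not members. The study sequenced total RNA depleted of ribosomal RNA from heart tissue of adult female B6CASTF1/J mice aged 18 to 20 months, a first-generation hybrid of C57BL/6J and CAST/EiJ obtained from The Jackson Laboratory. There was 1 group with 2 libraries, labelled as biological replicates 1 and 2, each from 300 ng of RNA with ERCC spike-ins, and no treatment, mutation or other age to set it against. The labels give each library its own biosample but the same donor entry, so the spread between the libraries may be technical in part. Levels are TPM (a relative level per transcript length that sums to the same total in each library) with the SD over the 2 libraries, and all coordinates are those of mm10.

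Potassium channels let potassium leave the cell and so set the resting potential and end each action potential. Inward rectifiers (Kcnj) and leak channels of the tandem-pore-domain family (Kcnk) hold the membrane at rest. Voltage-gated pores (Kcna to Kcnd, Kcnh, Kcnq) open on depolarisation and repolarise the cell. Accessory subunits (Kcnip, Kcnab, Kcne, Kcnmb) form no pore of their own and change the gating or trafficking of the pores. In the mouse ventricle fast repolarisation is known to rest on transient outward and slowly inactivating voltage-gated currents, whereas in larger mammals the currents of the KCNH2 and KCNQ1 channels take the greater part.

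The pore-forming members share the selectivity filter, the stretch of the pore loop that strips water from potassium. The 45 bases of coding sequence around it are shown for voltage-gated, inward rectifier and leak channel genes whose levels are compared below, so that the pore sequence of these genes can be read beside their levels. Sequences are from the GENCODE M21 transcripts and run 5′ to 3′ along the transcript. They are reference bases of mm10, and the CAST/EiJ alleles of these hybrid mice were not examined. The capitals mark the 15 bases of 5 codons for threonine or serine, then valine, isoleucine or leucine, then glycine, then tyrosine, phenylalanine or leucine, then glycine.

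Kcnk3, first filter (chr5:30588593-30621898, plus strand, spanning exons 1 and 2 of 2): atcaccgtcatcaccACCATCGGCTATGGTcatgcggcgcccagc
Kcnk3, second filter (chr5:30622202-30622216, plus strand, exon 2 of 2): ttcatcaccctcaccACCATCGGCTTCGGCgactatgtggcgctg
Kcnj11 (chr7:46099496-46099510, minus strand, exon 1 of 1): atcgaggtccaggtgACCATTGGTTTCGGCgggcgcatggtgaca
Kcnj8 (chr6:142566448-142566462, minus strand, exon 3 of 3): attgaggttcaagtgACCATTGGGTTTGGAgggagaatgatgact
Kcnj3 (chr2:55437627-55437641, plus strand, exon 2 of 4): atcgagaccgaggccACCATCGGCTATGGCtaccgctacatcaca
Kcnj5 (chr9:32322559-32322573, minus strand, exon 3 of 4): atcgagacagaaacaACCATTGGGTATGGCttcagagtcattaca
Kcnj2 (chr11:111072207-111072221, plus strand, exon 2 of 2): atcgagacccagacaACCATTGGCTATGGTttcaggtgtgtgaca
Kcnd2 (chr6:21217406-21714141, plus strand, spanning exons 1 and 2 of 6): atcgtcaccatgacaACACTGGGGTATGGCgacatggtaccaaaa
Kcna5 (chr6:126533745-126533759, minus strand, exon 1 of 1): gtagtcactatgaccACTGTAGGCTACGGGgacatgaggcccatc
Kcnh2 (chr5:24325555-24325569, minus strand, exon 7 of 15): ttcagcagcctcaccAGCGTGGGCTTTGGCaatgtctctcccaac
Kcnq1 (chr7:143191432-143191446, plus strand, exon 7 of 16): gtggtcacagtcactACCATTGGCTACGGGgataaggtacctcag

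Searched in frame in the longest coding sequence of each gene, the 5 codons were found in 77 of 77 pore-forming members and in 0 of 17 accessory members. Here the 10 silent subunits, described below, were counted as pore-forming. Kcnrg, which was in no role group, was counted as accessory. Over all protein-coding genes searched, 1.32% held them (289 of 21850), and 0.974% of the genes outside the family did. Of the 14 tandem-pore-domain genes, 12 held the filter more than once, as is known for channels with a pair of pore loops in 1 chain, and the others, Kcnk1 and Kcnk7, matched once. The codons allowed were taken from textbook knowledge of these channels, so the match describes the family and is not a test. Between paralogs the 45 bases shared 35 bases for Kcnj11 and Kcnj8 and 33 for Kcnj3 and Kcnj5. Kcnh2 and Kcnq1, of separate voltage-gated families, shared 21. In Kcnd2 the filter codons are interrupted by an intron, as is the first filter of Kcnk3.

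Expected counts, which are estimated reads per gene, totalled 35897521 in replicate 1 and 36926429 in replicate 2, of which the 94 members took 43104 and 42249. The limit set by a count of 0 is 3 counts, which is 0.0836 CPM (counts scaled to library size) in replicate 1 and 0.0812 CPM in replicate 2. Such limits and the intervals given later cover counting error only. All 8 cardiomyocyte markers exceeded 1 TPM in both libraries, and they summed to 39672 and 37535 TPM in replicates 1 and 2. The libraries were less alike in other tissue. The 10 atrial markers summed to 489 and 1146 TPM, with 8 of them higher in replicate 2, and the 8 adipocyte markers to 92.0 and 387 TPM, all higher in replicate 2. Airway epithelial markers summed to 1.02 and 304 TPM, T cell markers to 2.40 and 14.8 TPM and B and plasma cell markers to 8.93 and 122 TPM, with 8 of 8 higher in replicate 2 in each list. Single genes weighed on some sums, as Igkc held 4.55 and 97.7 TPM of the B and plasma cell list and Plin4 50.9 and 68.0 TPM of the adipocyte list. By gene, 8 of 8 B and plasma cell markers and 6 of 8 adipocyte markers were 2-fold or more higher in replicate 2. The adipocyte marker Lep rested on 3 and 4 counts. Erythroid markers, all 8 higher in replicate 1, summed to 23445 and 11170 TPM. Pericyte and smooth muscle markers, 10 in number, summed to 815 and 757 TPM, of which Des alone held 577.7 and 539.12 TPM. That sum thus rested mainly on Des and says little of the other markers in the list. Of 9 neuron and Schwann cell markers Th, Chga and Snap25 were at 0 in both libraries, and the list summed to 5.57 and 6.23 TPM. In bulk tissue fewer cells of a type and less RNA per cell cannot be told apart.

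A few genes held most of the family's RNA, and many members were low. At 1 TPM or more in both libraries were 23 of 94 members (24.5%), against 50.0% of all protein-coding genes, and 9 members reached 10 TPM in both. The count was 35 when TPM was rescaled over nuclear protein-coding genes, and 48 members had 10 or more expected counts in both. The share over all protein-coding genes was not computed for these settings or for 10 TPM. Those counts therefore cannot be set against the 50.0%. The median member had 0.19 TPM, against 1.22 TPM for the median protein-coding gene. A further 9 members had a mean of 0.5 to 1 TPM and 20 a mean of 0.1 to 0.5 TPM. In the RSEM-layout gene table no count in either library was given to 13 members (13.8%), against 23.7% of protein-coding genes. These were Kcna10, Kcne2, Kcnh4, Kcnh5, Kcnh8, Kcnj6, Kcnk7, Kcnk9, Kcnk15, Kcnk16, Kcnk18, Kcns2 and Kcnv1. Together the members held 486 and 451 TPM in replicates 1 and 2, which is 0.118% and 0.113% of the TPM of nuclear protein-coding genes. The 4 most abundant members, Kcnk3, Kcnip2, Kcng2 and Kcnj11, took 62.7% of the family's TPM in replicate 1 and 61.6% in replicate 2.

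**Figure D1:**
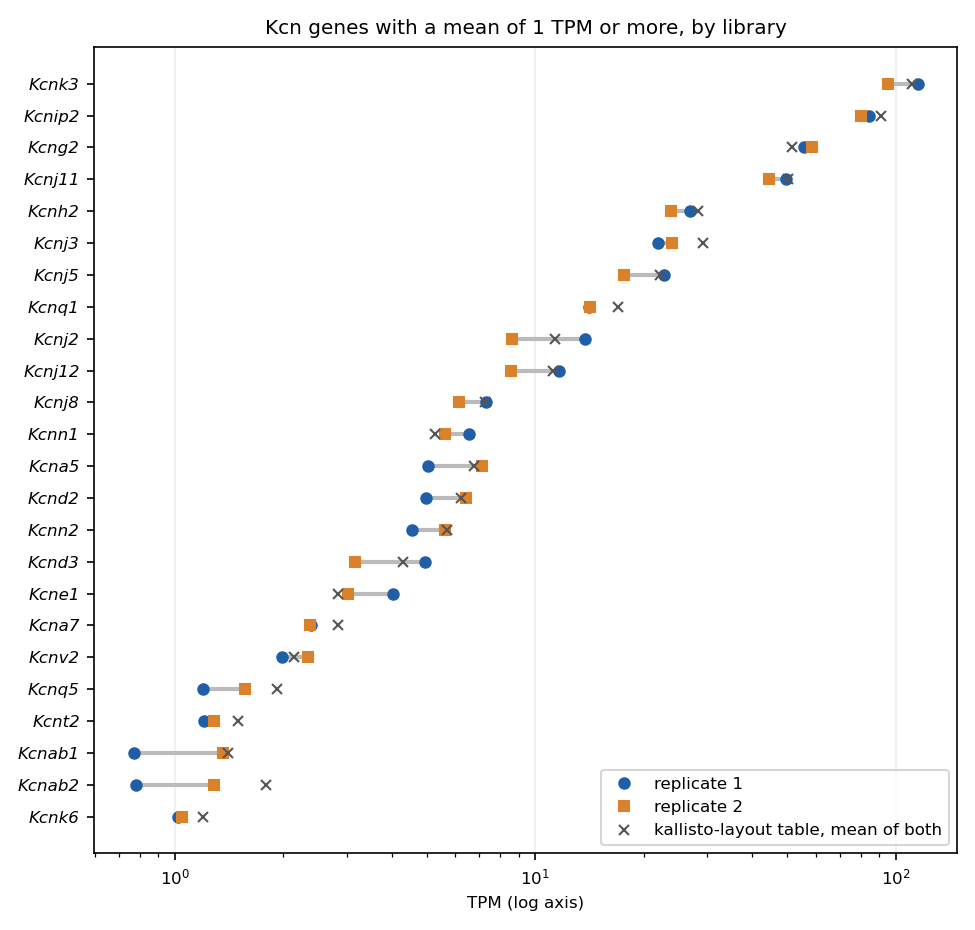
TPM (log axis) of 24 Kcn genes with a mean of 1 TPM or more, in replicate 1 (circles) and replicate 2 (squares) of the RSEM-layout gene table, with the mean of both libraries in the kallisto-layout table (crosses). Kcnk3 is highest with 115 and 94.9 TPM, and the symbols of a gene lie close together except for genes such as Kcnj2, Kcnd3, Kcnab1 and Kcnab2.

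By the names of the genes, the Kcnj group of 15 members held 25.6% of the family's TPM with 6 members at 1 TPM or more in both libraries. The Kcnk group of 14 held 22.9% with 2 such members, and the 17 genes Kcna to Kcnd held 7.45% with 5. The Kcnh group of 8 held 5.45% with 1, the Kcnq group of 5 held 3.49% with 2, and the Kcne group of 5 held 0.975% with 1. The other 30 members held 34.1% with 6 such members, chiefly through Kcnip2 and Kcng2.

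**Figure D2:**
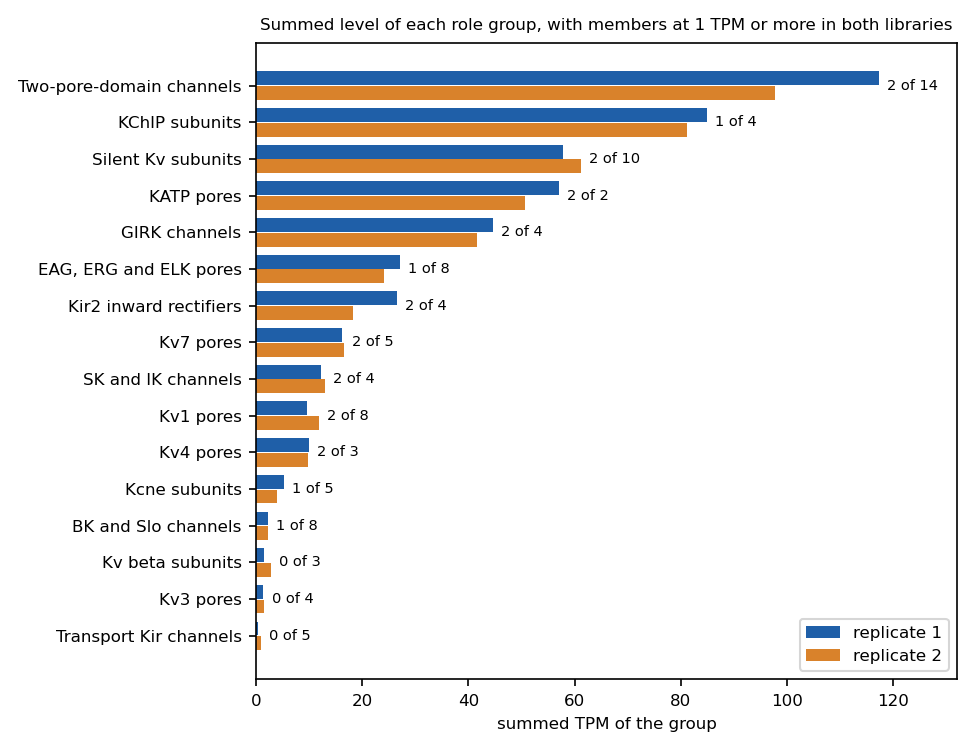
Summed TPM of 16 role groups of Kcn genes in replicate 1 (upper bars) and replicate 2 (lower bars), with the number of its members at 1 TPM or more in both libraries. Tandem-pore-domain channels lead with 117 and 97.7 TPM, although 2 of their 14 genes reached 1 TPM in both.

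The leak channels were represented almost wholly by 1 gene. Kcnk3, an acid-sensitive background channel (chr5:30588170-30625271, plus strand), was the most abundant member with 115 and 94.9 TPM in replicates 1 and 2, or 105 ± 14.2 TPM (SD, n = 2), and stood above 97.4% of protein-coding genes. Kcnk6, another leak channel, followed with 1.02 and 1.05 TPM. Kcnk2, a stretch-sensitive leak channel, had 0.53 and 0.74 TPM. Of the 14 genes 12 had a mean under 1 TPM, and 5 had no count. Kcnk3 shares exon bases with Gm9899 on the opposite strand, which had 4.0 and 3.58 TPM.

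Among the inward rectifiers the most abundant gene was Kcnj11, a pore of ATP-sensitive channels. These channels open when ATP falls and join a Kcnj pore to a sulfonylurea receptor (Abcc8 or Abcc9). Kcnj11 is the pore known from cardiomyocytes (chr7:46093953-46100764, minus strand) and had 49.7 and 44.5 TPM in replicates 1 and 2, or 47.1 ± 3.68 TPM (SD, n = 2). Kcnj8, the pore known from vascular muscle and pericytes (chr6:142564837-142571614, minus strand), had 7.29 and 6.14 TPM, below Kcnj3, Kcnj5, Kcnj2 and Kcnj12 in both libraries. Both libraries held several times more Kcnj11 than Kcnj8. Of the receptors, Abcc9 had 93.8 and 99.8 TPM and Abcc8 17.3 and 20.4 TPM. The sum of Kcnj11 and Kcnj8 was 57.0 and 50.6 TPM, against 111 and 120 TPM for the sum of Abcc9 and Abcc8, a ratio of 0.513 and 0.421. These sums were chosen after the values were seen.

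The G-protein-gated rectifiers, which open on vagal stimulation through muscarinic receptors, were represented by both cardiac subunits. Kcnj3 (chr2:55435970-55598145, plus strand) had 21.9 and 23.9 TPM, and Kcnj5 (chr9:32314707-32344350, minus strand) had 22.8 and 17.7 TPM. In the RSEM-layout gene table the libraries put these genes in opposite orders. In the kallisto-layout table Kcnj3 was higher in both libraries, with 27.5 and 31.0 TPM against 24.5 and 19.8 TPM for Kcnj5. The neuronal subunits Kcnj6 and Kcnj9 had no count and 1 count in all. Among the classical inward rectifiers, which hold the resting potential, Kcnj2 (chr11:111066164-111076821, plus strand) had 13.8 and 8.60 TPM and Kcnj12 (chr11:61022564-61071131, plus strand) 11.7 and 8.59 TPM. Their relatives Kcnj4, with 0.56 TPM in each library, and Kcnj14, with 0.51 and 0.48 TPM, were far lower. The 5 rectifiers of epithelial and glial potassium transport summed to 0.42 and 0.97 TPM, led by Kcnj15 with 0.33 and 0.53 TPM.

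For the transient outward current, the subunit exceeded its pores. Kcnip2, the calcium-binding subunit that mouse Kv4 channels need at the cell surface (chr19:45791839-45816061, minus strand), was the second most abundant member with 84.3 and 80.2 TPM, or 82.3 ± 2.93 TPM (SD, n = 2). The pores were Kcnd2 (chr6:21215503-21729805, plus strand) with 4.98 and 6.41 TPM and Kcnd3 (chr3:105452330-105674002, plus strand) with 4.95 and 3.17 TPM. Kcnip2 thus stood at 8.49 times the sum of both pores in replicate 1 and 8.37 times in replicate 2, a comparison chosen after the values were seen. Levels of mRNA do not give the subunits per channel. Kcnd1 had 0.07 and 0.22 TPM. The other calcium-binding subunits, Kcnip1, Kcnip3 and Kcnip4, were under 1 TPM, Kcnip3 being the highest of them with 0.43 and 0.71 TPM. Kcna4, the pore of the slow transient outward current, had 0.40 and 0.31 TPM.

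Among the Kcna pores, Kcna5, the pore of an ultrarapid delayed rectifier (chr6:126532551-126535412, minus strand), was highest with 5.03 and 7.10 TPM and was higher in replicate 2. Of the other Kcna pores, Kcna7 had 2.39 and 2.38 TPM and Kcna1 0.98 and 0.97 TPM, while Kcna10 had no count. Kcnb2 had 0.03 and 0.04 TPM. The 4 Kcnc pores, known from fast-firing neurons, each had a mean under 1 TPM.

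Silent subunits, which join other voltage-gated pores and change their gating without forming a channel alone, held 12.7% of the family's TPM. This was almost entirely Kcng2 (chr18:80294546-80364254, minus strand), the third most abundant member with 55.5 and 58.5 TPM, or 57.0 ± 2.10 TPM (SD, n = 2). In the kallisto-layout table Kcng2 had 50.2 and 52.6 TPM. Kcnv2 followed with 1.99 and 2.34 TPM, and the other 8 silent subunits were under 1 TPM. A gene on the opposite strand, D330025C20Rik, shares exon bases with Kcng2 and had 1.70 and 2.28 TPM.

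The delayed rectifiers of larger mammals were also measured in the mouse. Kcnh2, the pore of the rapid delayed rectifier (chr5:24319589-24351604, minus strand), had 26.9 and 23.8 TPM, or 25.3 ± 2.23 TPM (SD, n = 2). Kcnq1, the pore of the slow delayed rectifier (chr7:143106362-143427042, plus strand), had 14.1 and 14.2 TPM. Its subunit Kcne1 had 4.03 and 3.03 TPM from 131 and 124 counts, and Kcne4, a subunit that inhibits Kcnq1 in expression systems, had 0.86 and 0.62 TPM. Kcne2 had no count, and the other 7 Kcnh genes were under 1 TPM, 3 of them without a count. Kcnq5, known from neurons and smooth muscle, had 1.20 and 1.57 TPM. Kcnq1, with 1123 and 1190 counts, shares exon bases with Kcnq1ot1 on the opposite strand, which had 719 and 850 counts.

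Channels gated by calcium or sodium were low apart from small-conductance pores. Kcnn1 had 6.53 and 5.62 TPM and Kcnn2 4.54 and 5.62 TPM, both calcium-activated and of small conductance. Kcnn3 had 0.83 and 0.78 TPM. Kcnt2, a sodium-activated pore, had 1.21 and 1.29 TPM. The large-conductance pore Kcnma1 and its smooth muscle subunit Kcnmb1 had 0.33 and 0.27 TPM and 0.38 and 0.29 TPM. By posterior mean TPM, the other abundance estimate in the deposited table, Kcnma1 was at 0.98 and 0.87, while Kcnmb1 kept the same values. Of the beta subunits of Kcna channels, Kcnab1 had 0.77 and 1.36 TPM, Kcnab2 0.78 and 1.29 TPM and Kcnab3, named after its values were seen, 0.01 and 0.09 TPM. By posterior mean TPM Kcnab2 was at 2.13 and 2.5.

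Genes that share a current or a complex were compared in 16 pairs within each library, as the log2 ratio of TPM + 0.1. For a call, both ratios of a pair had to share their sign and each had to be larger in size than the gap between the libraries, which is a description and not a test. Of the 16 pairs 10 were called, 9 with the first-named gene higher and 1 with the second. Kcnj11 exceeded Kcnj8 by 2.79 ± 0.060 (SD, n = 2), or 6.93-fold, and Abcc9 exceeded Abcc8 by 2.36 ± 0.10. Kcnip2 exceeded Kcnd2 by 3.84 ± 0.30 and Kcnd2 exceeded Kcna4 by 3.67 ± 0.46. The ratio of Kcnh2 over Kcnq1 was 0.83 ± 0.13 and that of Kcnq1 over Kcne1 1.99 ± 0.28. Kcnk3 exceeded Kcnk2 by 7.17 ± 0.49 and Kcnj2 exceeded Kcnj4 by 4.06 ± 0.48. Kcne4 lay below Kcne1, with a log2 ratio of -2.11 ± 0.011.

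The pairs of near equals were not called. Kcnd2 over Kcnd3 was 0.0085 in replicate 1 and 0.99 in replicate 2, so the pores were level in replicate 1 and about 2-fold apart in replicate 2. Kcnj3 over Kcnj5 was -0.059 and 0.44, Kcnj2 over Kcnj12 was 0.24 and 0.0017, and Kcnn1 over Kcnn2 was 0.51 and 0. Kcnab2 over Kcnab1 was 0.016 and -0.071, and Kcnma1 over Kcnmb1 was -0.16 and -0.076. In these pairs the order of the genes could not be told beyond the spread between the libraries.

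**Figure D3:**
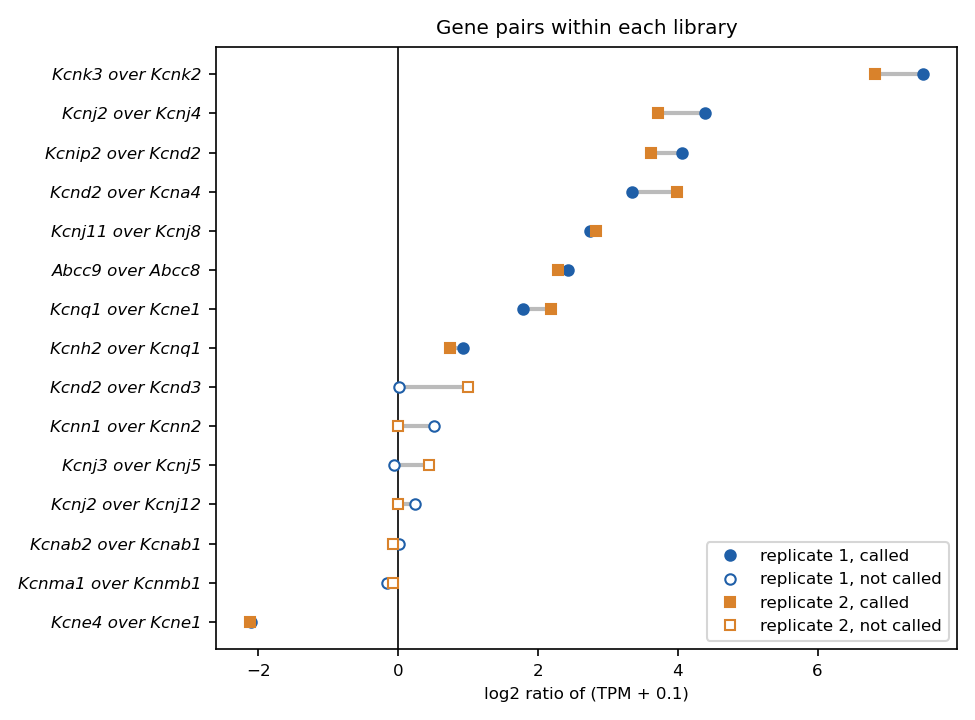
Log2 ratio of TPM + 0.1 for 15 gene pairs in replicate 1 (circles) and replicate 2 (squares), with filled symbols for pairs called and open symbols for pairs not called. The 6 pairs with open symbols lie near 0, Kcnd2 over Kcnd3 spreading widest from 0.0085 to 0.99.

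The libraries were then compared member by member. Of the 25 members with a mean of 1 TPM or more, 0 were 2-fold or more apart in TPM, against 4.22% of the 12510 genes at that level, a share that would be about 1 member in 25. The log2 ratio of replicate 1 over replicate 2 ran from -0.75 for Kcnab1 to 0.67 for Kcnj2, with a median of -0.0030 and an SD of 0.37, against a median of -0.023 and an SD of 0.64 over all genes. With 1 library on each side these ratios have no replicate check. Higher in replicate 1 were 12 of the 25 and higher in replicate 2 were 13.

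Counting error alone was smaller than many of these differences when CPM were scaled to total expected counts. Of those totals 30.5% in replicate 1 and 28.7% in replicate 2 lay on the mitochondrial chromosome. Another scaling would shift every ratio alike and may change which intervals leave out 1, and the intervals were not recomputed under it. The exact 95% interval of the CPM ratio, replicate 1 over replicate 2, left out 1 for 17 of the 25 members (68.0%), against 45.0% of genes with a mean of 1 TPM or more. The second share is over genes of all types and was not matched for counts, on which the width of the interval depends. The gap between the shares therefore cannot be read as a trait of the family. Kcnj2 had 2053 counts in replicate 1 and 1353 in replicate 2, a ratio of 1.56 (interval 1.46 to 1.67). Kcnd3 had 850 and 553 counts, a ratio of 1.58 (1.42 to 1.76), and Kcnj12 714 and 554 counts, a ratio of 1.33 (1.18 to 1.48). Kcnj5 was higher in replicate 1 as well, with a ratio of 1.25 (1.18 to 1.33). On the other side, Kcna5 had 388 and 577 counts, a ratio of 0.692 (0.607 to 0.788), and Kcnd2 703 and 953 counts, a ratio of 0.759 (0.687 to 0.837). Kcnn2 had a ratio of 0.768 (0.666 to 0.885). Thus Kcnd2 and Kcnd3, which share the transient outward current, moved in opposite directions. Atrial, adipocyte, lymphocyte and airway markers were higher in replicate 2, as given above, and their part in these ratios was not tested.

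**Figure D4:**
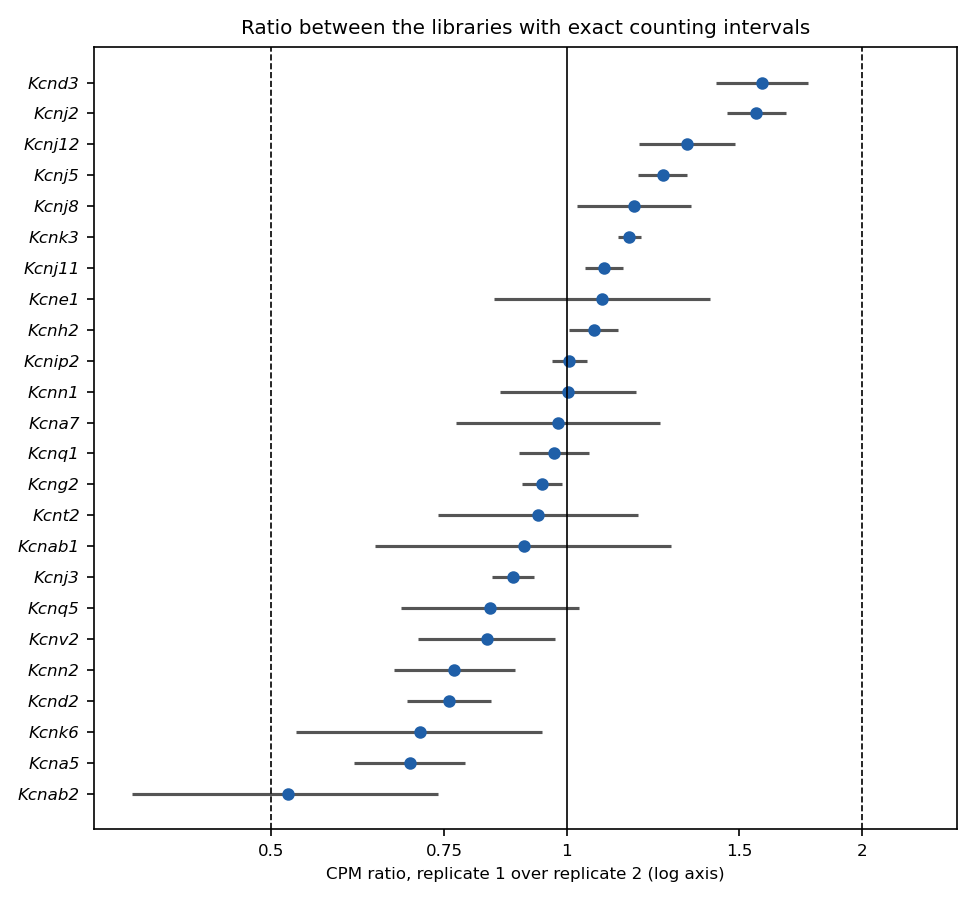
CPM ratio of replicate 1 over replicate 2 (log axis) for 24 members with a mean of 1 TPM or more, with exact 95% counting intervals as bars and dashed lines at 2-fold either way. Kcnd3 and Kcnj2 lie highest at 1.58 and 1.56, and Kcnab2 lies lowest at 0.520.

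Below 1 TPM the count of members 2-fold or more apart depended on the 0.1 TPM added before taking ratios. With it there were 2, both higher in replicate 2. Of protein-coding genes with any count, at any level, 6.03% were 2-fold or more higher in replicate 2. With 0.01 TPM added there were 18, of which 14 were higher in replicate 2 and 4 in replicate 1, and with 1 TPM added there were 0. The share over all genes was not computed for these settings, so this split cannot be read as a trait of the family. Kcnn4, an intermediate-conductance calcium-activated channel known from blood cells and epithelia, had 12 counts in replicate 1 and 46 in replicate 2, or 0.27 and 0.95 TPM. Its CPM ratio was 0.268 (0.129 to 0.515). Kcnj16 had 3 and 15 counts, a ratio of 0.206 (0.0382 to 0.727). Kcnh7, named after its values were seen, had 0 and 14 counts, and the upper bound of its ratio was 0.310. Its exon bases overlap those of Gca on the opposite strand, which had 10.1 and 9.55 TPM, against 0 and 0.09 TPM for Kcnh7. T cell, B and plasma cell and airway epithelial markers, all 8 of each list, were higher in replicate 2 as well, with the sums given above, and their part in these values was not tested.

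Transcript shares, the percent of a gene's TPM given to each annotated transcript, were compared between the libraries. Of the 20 members with a mean of 1 TPM or more and more than 1 annotated transcript, 18 had the same leading transcript in both libraries, near the 88.0% of protein-coding genes at that level, and 15 did in kallisto layout. A kept leading transcript did not mean an equal share, as Kcnk6-201 took 68.4% in replicate 1 and 99.2% in replicate 2 and Kcnn1-204 took 43.5% and 57.8%. Kcnab1 was an exception. Kcnab1-201 took 64.3% of Kcnab1 in replicate 1 and 22.65% in replicate 2, from 65 and 74 counts for the gene. Kcnk3-201 took 95.9% ± 1.59 of Kcnk3, Kcnq1-201 took 95.9% ± 0.933 of Kcnq1 and Kcnj11-205 took 93.2% ± 0.014 of Kcnj11.

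Other members used transcripts that differ in coding sequence. Kcnip2 was read from Kcnip2-202 with 54.8% ± 1.77 (coding sequence 756 nt), Kcnip2-209 with 30.4% ± 2.49 (810 nt) and Kcnip2-208 with 12.6% ± 1.45 (660 nt). In the kallisto-layout table Kcnip2-202 and Kcnip2-209 had nearly equal shares of 39.3% and 39.6%. Kcnh2-201, which starts at position 24351604 of chromosome 5 and has a coding sequence of 3486 nt, took 52.7% ± 1.79 of Kcnh2. Kcnh2-202, which starts at position 24329591 and has 2460 nt, took 35.0% ± 1.09, and the kallisto-layout shares were 50.2% and 32.7%. The shorter transcript thus made up about as large a part in both tables. Kcnd3-202 (1908 nt) took 76.7% ± 3.37 of Kcnd3 and Kcnd3-201 (1965 nt) 11.9% ± 0.12. For Kcnj8, Kcnj8-202 with the full coding sequence of 1272 nt took 61.3% ± 5.96, but 93.7% in the kallisto-layout table. The rest went to Kcnj8-201, whose coding sequence is 381 nt.

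Shares also differed between the tables, for short and long transcripts. Kcnj3-203, 1679 nt long, took 6.0% of Kcnj3 in RSEM layout and 30.8% in kallisto layout. Kcng2-202, which is 279 nt long, took 10.1 and 10.8 TPM, or 18.3% ± 0.205 of Kcng2, and was at 0 in the kallisto-layout table. Kcnn1-203, 338 nt long, took 2.73 and 1.28 TPM in replicates 1 and 2 and was likewise at 0 there. Kcnn1 had nearly equal CPM in the libraries, with a ratio of 1.00 (0.856 to 1.18), while its TPM was 6.53 and 5.62. At gene level 1 of the 25 members, Kcnab2, was over 1.5 times apart between the tables, against 10.6% of protein-coding genes at 1 TPM or more. Kcnab2 averaged 1.04 TPM in RSEM layout, against 1.79 TPM in kallisto layout.

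**Figure D5:**
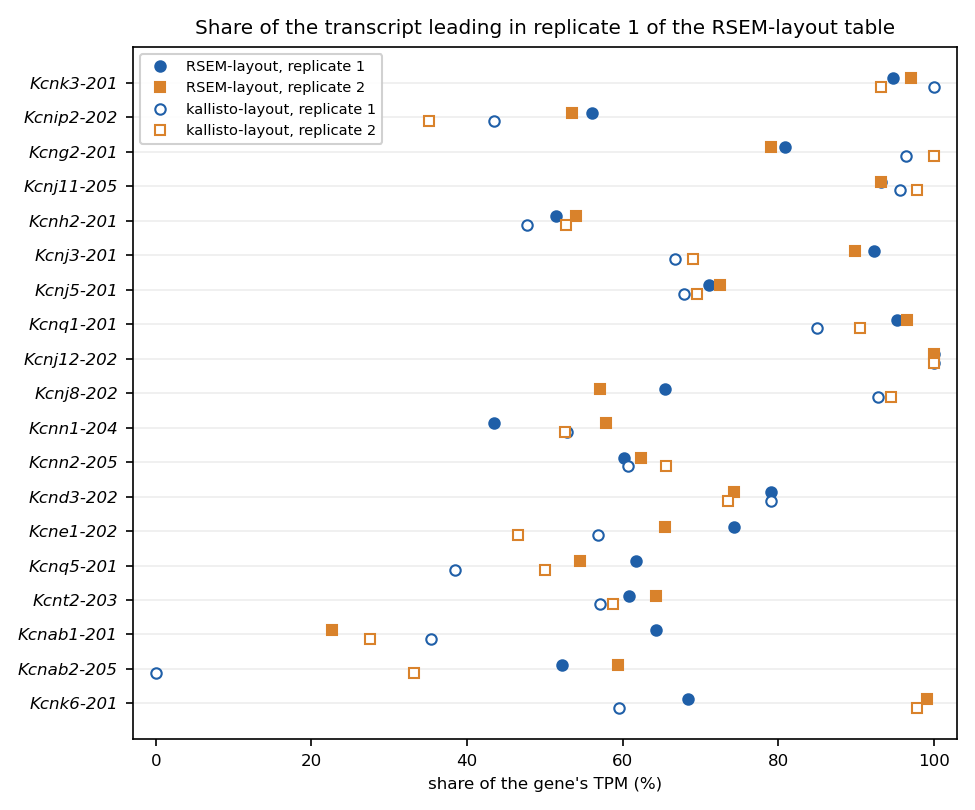
Share of the gene's TPM (%) held by the transcript that led in replicate 1 of the RSEM-layout table, for 19 members, in the RSEM-layout table (filled) and the kallisto-layout table (open), replicate 1 as circles and replicate 2 as squares. Kcnk3-201 and Kcnj11-205 lie above 90 in both tables, while Kcnip2-202 and Kcnj8-202 shift between them.

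Several members lie next to each other in the genome with unequal levels. Kcnj11 lies 3758 bp from Abcc8, and Kcnj8 lies 16247 bp from Abcc9, in each case the gene of a pore beside that of a receptor. The abundant pore Kcnj11 thus lies beside the less abundant receptor, and the abundant receptor Abcc9 beside the less abundant pore. Kcnj2, with 13.8 and 8.60 TPM, lies 38195 bp from Kcnj16, with 0.03 and 0.28 TPM. On chromosome 6, Kcna5, Kcna1 and Kcna6 follow one another with means of 6.07, 0.98 and 0.37 TPM. Kcnj5, at 20.2 TPM, neighbours Kcnj1, which had 1 count in all.

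Genes outside the family were described from 2 lists, of partners of these channels and of regulators of their genes. Both libraries held at least 1 TPM of 18 of the 23 genes listed as partners, and 1 listed gene was 2-fold or more apart, higher in replicate 2. The highest were Fhl2, which binds the Kcne1 subunit, with 836 and 627 TPM, Ank2, a membrane anchor, with 113 and 126 TPM, and Abcc9. The following genes were chosen after their values were seen. Akap9, the scaffold of the Kcnq1 complex, had 16.2 and 18.4 TPM, and Chrm2, the muscarinic receptor that opens Kcnj3 and Kcnj5 channels, had 26.2 and 31.9 TPM. Dpp6, a subunit of neuronal Kcnd channels, had 0.32 and 0.19 TPM. Lrrc10, the listed gene that differed, had 39.4 and 125 TPM. Whether Lrrc10 acts on potassium channels was not tested.

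All 10 genes listed as transcription regulators of potassium channel genes reached 1 TPM in each library, led by Gata4 with 55.9 and 33.5 TPM, Nkx2-5 with 35.8 and 29.4 TPM and Hand2 with 20.8 and 29.6 TPM. Klf15, a transcription factor with a circadian rhythm in mouse heart, was 2-fold or more higher in replicate 2, with 13.8 and 34.9 TPM, and was chosen after its values were seen. Any relation of these genes to the levels of the channel genes was not tested.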

How the data were processed

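Total RNA-seq tables of 2 libraries were analysed. Per the deposited readme the tables refer to mm10 and GENCODE M21. Tables are named by their column layout, since programs and versions were not given in the sources used here. The expected counts (RSEM-layout) and estimated counts (kallisto-layout) are the authors' values per gene or transcript, with reads that match several features divided among them. TPM were deposited by the authors as maximum likelihood and posterior mean values. The isoform percent was deposited by the authors and gives the part of a gene's TPM held by each transcript. The TPM interval bounds, deposited by the authors and treated as a signal, are not quoted. Whether counting used strand is not given, so genes sharing exon bases on opposite strands are uncertain.

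The 94 members and all lists were chosen with earlier results of these data known. Named were members with a mean of 1 TPM or more, members of the pair list, the highest member of each role group, members at 0, members 2-fold or more apart, Abcc8, Abcc9 and the 3 highest genes of each outside list. Other members under 1 TPM were named after their values were seen. Some members' own values and some sequences are not reported here, though counts over the family include them. Main values were maximum likelihood TPM of the RSEM-layout gene table, with log2 ratios of TPM + 0.1. Rows without an Ensembl gene held 0.492% and 0.515% of counts. Kallisto-layout transcripts were summed per gene. Intervals are exact (Clopper-Pearson, conditional on both counts, 95%), from expected counts rounded to whole numbers. They were run on simulated Poisson counts, the model they assume, without further variation between libraries. That run checks the calculation only, not the fit to these libraries. With 1 group there was no test between conditions. Python 3.11.15, scipy 1.17.1, pandas 2.3.3 and, for size factors only, edgeR 4.0.16 and DESeq2 1.42.0 were used. Alternatives were posterior mean TPM, the kallisto-layout table, TPM over nuclear protein-coding genes, other pseudocounts, thresholds and filters, TMM and DESeq2 scaling, and each library alone.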

Additional observations from a re-analysis of the deposited data

Results flagged for a closer look

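Counts outside the main measurement, above the 3 counts that a count of 0 allows, were found in noncoding genes with a Kcn symbol. Kcnq1ot1, the antisense RNA of the imprinted Kcnq1 domain (chr7:143203458-143296549, minus strand), had 719 counts in replicate 1 and 850 in replicate 2. Its TPM was 0.28 and 0.31, since its transcript is long, and it shares exon bases with Kcnq1 on the opposite strand. Kcnd3os, antisense to Kcnd3, had 6 and 7 counts. Groups of 2 libraries allow no check for outlying samples.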

How the results depend on the processing

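The count of 23 members at 1 TPM or more in both libraries became 35 when TPM was rescaled over nuclear protein-coding genes, which raises every level, and 48 when the criterion was 10 expected counts in both libraries. The share over all protein-coding genes was not computed for either setting. It was 26 without replicate 1 and 23 without replicate 2. Without a filter on low values, 2 members in place of 0 were 2-fold or more apart between the libraries with 0.1 TPM added, and in alternatives chosen after seeing the data 18 were with 0.01 TPM added and 0 with 1 TPM added. By posterior mean the level of Kcnma1 was 0.925 TPM against 0.30 TPM, and that of Kcnab2 2.315 TPM against 1.04 TPM. The number of pairs called and of shared leading transcripts stayed within 1.5 times, and the median ratio within the members' SD, under the alternatives run for them. Called pairs kept their direction and call in all of these. Of pairs not called, Kcnab2 over Kcnab1 was called with posterior mean TPM (0.89) and in the kallisto-layout table (0.33), and Kcnma1 over Kcnmb1 with posterior mean TPM (1.24) and a pseudocount of 0.01 (-0.15), where the sign differed between these settings. The cause was not tested. Of 31 member levels, 13 moved by more than the SD between libraries in the kallisto-layout table and 9 with posterior mean TPM. Leaving out a library gives no pair call, since the call needs both. No paired analysis was possible because there is 1 group. The lowest members rest on few counts, and 9 members had counts in 1 library only, for which no cause was tested.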
